A study of Homo sapiens with 6 samples.

Results

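The genes described here encode 10 subunits of the SWI/SNF (BAF) chromatin remodeling complexes, namely SMARCA2, SMARCA4, SMARCC1, SMARCC2, SMARCD1, SMARCD3, SMARCE1, ARID1A, ARID1B and PBRM1. They were taken by name, as subunit genes other than the deleted SMARCB1, by a rule that uses no measured value, although earlier results of these data were known when it was written. They are 10 of the 56638 genes in the table, and 9 of them had counts. SMARCC2 was at 0 in all 6 libraries.

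SWI/SNF complexes use the energy of ATP to slide or evict nucleosomes and so open chromatin at enhancers and promoters. Each complex holds a single ATPase, either SMARCA2 (BRM) or SMARCA4 (BRG1). In the canonical BAF and PBAF forms it sits on a core of SMARCC1, SMARCC2, SMARCD and SMARCE1 proteins. ARID1A or ARID1B completes canonical BAF, and PBRM1 completes PBAF. SMARCB1 is a core subunit of both forms, and its loss defines malignant rhabdoid tumors. SWI/SNF opposes Polycomb Repressive Complex 2 (PRC2), the enzyme that trimethylates lysine 27 of histone H3 (H3K27me3) over broad domains of silent genes. H3K4me3, trimethylation of lysine 4, forms narrow peaks at the starts of active or poised genes.

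G401, an established malignant rhabdoid tumor line, was given either DMSO, the vehicle, or MAK683 at 3 µM over 3 days. MAK683 binds EED, a PRC2 subunit, and blocks the methyltransferase. All cells, DMSO controls included, lack SMARCB1. Each treatment had 1 input library (chromatin sequenced without antibody), 1 H3K27me3 library and 1 H3K4me3 library, so no difference below has a replicate check and no p-value is given.

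Each library held between 13308099 and 21281877 counts, and 3 counts, taken as the lowest level a library can show, were worth between 0.141 and 0.225 CPM (counts scaled to a library total of 1000000). The deposited counts are whole numbers, and no spike-in factor was used here. Whether a spike-in scaling was applied before deposit was not tested. In CPM the counts measure the spread of each library's reads among genes, and a mark that fell evenly at every gene would not show. Intervals of a share or of a single ratio are 95% exact Clopper-Pearson intervals of a share of reads, turned into log2 ratios where needed. Intervals of a difference between log2 ratios, that is between paralogues or as a change over input, are 95% intervals by a normal approximation to the counts. All of them cover counting error only. SMARCB1 (chr22:24129118-24180196 on GRCh37) had 0 counts in both inputs and at most 4 counts in any library, and G401 is known to lack this gene.

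Among the members, SMARCA2 stood alone. It was the 1 gene of the 9 with counts that carried more H3K27me3 than input, and it had more H3K4me3 after MAK683. SMARCA4, the alternative ATPase, carried less H3K27me3 than input, and the interval of its H3K4me3 change included 0. The remaining subunit genes resembled SMARCA4 in H3K27me3, and SMARCE1, whose counts were few, was the other member with more H3K4me3 after treatment.

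SMARCA2 lies at chr9:1980290-2193624 on the plus strand (GRCh37, GENCODE 44), over 213 kb, and SMARCA4 at chr19:11071608-11190102 on the plus strand, over 118 kb. The promoters of these ATPase genes are shown because these paralogues differed in H3K27me3, as read below. The first is the canonical start of SMARCA2 (chr9:2015097-2015396, plus strand), the next an internal start of SMARCA2 listed 6598 bases downstream (chr9:2021695-2021994, plus strand), and the last the canonical start of SMARCA4 (chr19:11071456-11071755, plus strand). Each runs from 250 bases before to 50 bases after the start, 5′ to 3′, as RefSeq gives it with GRCh38.p14, located here on GRCh37 by exact match. Capitals mark every CG, the dinucleotide that concentrates in CpG islands and reads the same on both strands.
SMARCA2 canonical start: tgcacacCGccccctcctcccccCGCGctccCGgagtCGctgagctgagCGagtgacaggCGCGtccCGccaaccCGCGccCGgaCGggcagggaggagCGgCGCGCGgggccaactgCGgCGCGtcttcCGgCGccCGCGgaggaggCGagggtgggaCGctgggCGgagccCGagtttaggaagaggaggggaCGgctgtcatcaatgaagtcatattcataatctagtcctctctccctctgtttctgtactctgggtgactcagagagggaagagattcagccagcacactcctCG
SMARCA2 internal start: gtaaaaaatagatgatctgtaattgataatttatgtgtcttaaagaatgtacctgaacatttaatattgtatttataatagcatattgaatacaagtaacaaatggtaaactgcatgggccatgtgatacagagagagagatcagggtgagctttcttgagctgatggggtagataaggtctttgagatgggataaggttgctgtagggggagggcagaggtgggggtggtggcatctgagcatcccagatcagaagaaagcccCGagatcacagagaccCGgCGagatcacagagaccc
SMARCA4 canonical start: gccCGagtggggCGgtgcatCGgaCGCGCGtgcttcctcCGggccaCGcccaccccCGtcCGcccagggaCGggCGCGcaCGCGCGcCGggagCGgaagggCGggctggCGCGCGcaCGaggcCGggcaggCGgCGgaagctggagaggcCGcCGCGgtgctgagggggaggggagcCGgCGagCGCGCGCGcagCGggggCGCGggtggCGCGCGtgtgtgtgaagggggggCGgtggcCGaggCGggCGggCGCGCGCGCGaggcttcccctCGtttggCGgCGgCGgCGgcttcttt

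The canonical SMARCA2 promoter holds 30 CG in these 300 bases, more than 77.6% of 35116 RefSeq promoters, whose median is 14. The internal start holds 3, more than 18.2% of them. The canonical SMARCA4 promoter holds 55, more than 99.6%. SMARCA4 also has a listed internal start, 23094 bases downstream, which holds 5 CG. Further internal starts of SMARCA2, 142315 and 143117 bases downstream, hold 4 and 9 CG. These other starts are not printed. At least 1 CG is present in 96.0% of all promoters. The canonical promoters of the 8 members with an entry hold between 25 CG (SMARCE1) and 55 CG (SMARCA4), so the SMARCA2 promoter is within the range of the other members. These letters describe the reference genome and not methylation or binding in G401.

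For SMARCA2, the catalytic subunit also called BRM, the input had 2088 counts in DMSO and 2376 in MAK683, or 124 and 122 CPM. Its H3K27me3 libraries had 5840 and 3466 counts, or 305 and 260 CPM. Its H3K4me3 libraries had 1648 and 2752 counts, or 77.4 and 140 CPM. H3K27me3 was thus above input under both treatments, while H3K4me3 was below input in DMSO and above it in MAK683.

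In DMSO, H3K27me3 at SMARCA2 was 2.46-fold above input, a log2 ratio of 1.30 with an interval from 1.22 to 1.37. The median log2 ratio over the 31031 genes tested (at least 10 counts in 1 of the 2 libraries compared) was -0.61, with quartiles of -1.02 and 0.52, and SMARCA2 was higher than 90.0% of these genes. Of all genes tested, 34.3% were above input and 23.8% were at least 1.5-fold above it. Of the 9 members with counts, SMARCA2 alone was above input and alone passed 1.5-fold. HOXD13, TBX3 and GATA3, transcription factor genes of development named in the study, give a scale for that value. HOXD13 was at 2.58, TBX3 at 1.60 and GATA3 at 1.62 on the same log2 scale, each above SMARCA2.

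SMARCA4 (BRG1) had 1324 and 1599 input counts, 809 and 596 H3K27me3 counts and 2348 and 2102 H3K4me3 counts, DMSO first. Its H3K27me3 over input in DMSO was -0.90 on the log2 scale, with an interval from -1.03 to -0.77. The ATPase paralogues therefore differed by 2.19 in this measure, with an interval from 2.05 to 2.34, or 4.57-fold. In MAK683 they still differed by 1.97, with an interval from 1.81 to 2.12.

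The core scaffold and accessory subunits were low in H3K27me3. SMARCC1, a scaffold subunit on which the complex is assembled, had 2537 counts in the DMSO input and 1401 with the H3K27me3 antibody, and 2831 and 1092 after MAK683. SMARCD1, which links the core to transcription factors, had 251 and 131 in DMSO and 237 and 115 in MAK683. SMARCD3, its counterpart known for a role in heart and muscle, had 450 and 271 in DMSO and 488 and 217 in MAK683. In DMSO their log2 ratios of H3K27me3 to input were -1.04, -1.12 and -0.92, and SMARCD1 and SMARCD3 differed by -0.20 with an interval from -0.58 to 0.17. No difference in H3K27me3 over input between these SMARCD paralogues was detectable at this depth.

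The subunits that define the BAF and PBAF forms were low as well. ARID1A, a DNA-binding subunit often mutated in ovarian cancer, had 1202 counts in the DMSO input and 644 with the H3K27me3 antibody, and 1291 and 501 after MAK683. ARID1B, which takes the same place in the complex, had 5250 and 2875 in DMSO and 5982 and 2263 in MAK683. PBRM1, the bromodomain subunit of PBAF often mutated in kidney cancer, had 1280 and 643 in DMSO and 1453 and 556 in MAK683. Their log2 ratios to input in DMSO were -1.09, -1.06 and -1.18. ARID1A and ARID1B differed by -0.031, with an interval from -0.18 to 0.12.

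Across the 8 members other than SMARCA2, H3K27me3 over input ranged from -1.18 (PBRM1) to -0.90 (SMARCA4) in DMSO, with a median of -1.06. In that order the interval of each gene overlapped that of the next, while the intervals of SMARCA4 and PBRM1 at the ends did not overlap. The quartile of -1.02 over all genes lies within this range. In MAK683 these 8 ranged from -1.22 to -0.49, with a median of -0.83, against -0.46 over all 30959 genes tested.

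The remaining 2 members were hard to read from whole-gene counts. SMARCE1, an HMG-box core subunit, had 49 and 66 input counts, 26 and 19 H3K27me3 counts and 16 and 38 H3K4me3 counts, DMSO first. Of its 23.7 kb at chr17:38781214-38804906 (minus strand), 2.39 kb are covered by no other gene of the annotation, and its first kb is not among them. SMARCC2, the second scaffold subunit, lies at chr12:56556143-56583351 (minus strand), and all 27.2 kb are covered by MYL6 and a longer transcript model on the same strand. The 8 members with at least 70% of their span unshared had between 21.4 and 31.5 input counts per unshared kb. SMARCE1 had 48.0, above that range, so its counts may cover more than the unshared 2.39 kb, which was not tested. How reads in shared spans were counted is not stated, and the longer model was not found by name in the table, so why SMARCC2 is at 0 was not tested. With no input counts either, no level of a mark can be given for it.

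After MAK683, H3K27me3 at SMARCA2 was still above input in CPM. It was 2.14-fold above, a log2 ratio of 1.10 with an interval from 1.02 to 1.17, which was higher than 91.0% of genes tested. This ratio compares shares of libraries and does not measure how much of the mark was left. The paper reports that MAK683 strongly depleted H3K27me3 across the genome of G401. Of all genes, 34.1% were above input and 20% at least 1.5-fold above it in MAK683, and SMARCA2 was again the 1 member of 9 under either rule.

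Between treatments, SMARCA2 held a smaller part of the H3K27me3 reads after MAK683. Of its reads in both H3K27me3 libraries, 37.2% (interval 36.3 to 38.2%) came from MAK683, against 41.0% of the library totals, a log2 change in CPM of -0.23 with an interval from -0.29 to -0.17. For SMARCC1 this share was 43.8% (41.8 to 45.8%), for ARID1B 44.0% (42.7 to 45.4%) and for PBRM1 46.4% (43.5 to 49.2%). These 3 genes had intervals above the library share, SMARCA2 had one below it, and the other 5 measured members had intervals that include it. Over all genes, 22.7% had an interval above and 13.6% one below. Here and below, such a call also depends on how many reads a gene has, and no share at equal depth was computed.

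None of the 9 members was 1.5-fold or more away from DMSO in H3K27me3, against 11.4% of 29931 genes that were at least 1.5-fold higher and 7.76% that were at least 1.5-fold lower. The change was 0.085 at SMARCA4, 0.34 at SMARCD1, 0.20 at SMARCD3, 0.071 at SMARCE1 and 0.16 at ARID1A on the log2 scale. The signs of these small changes depend on the scale between libraries. The 8 members other than SMARCA2 were all positive in CPM, 2 positive and 6 negative with median-of-ratios scaling, which moved the median of all genes by -0.21, and all negative in the counts as deposited, which moved it by -0.52. SMARCA2 was negative on each scale, at -0.23, -0.43 and -0.75, and was at -0.31 relative to the median of all genes. Each scale moves all genes by nearly the same amount, so that distance cannot differ much between scales and adds no check.

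Set against the input of the same treatment, SMARCA2 changed by -0.20 in H3K27me3, with an interval from -0.30 to -0.096. SMARCD1 gave the other extreme, 0.63 with an interval from 0.19 to 1.07. Its input was itself lower in MAK683, by a log2 ratio of -0.29 (interval -0.56 to -0.034), which enters that value. The inputs of the other 8 measured members had intervals that include 0, SMARCA2 among them at -0.026 (-0.11 to 0.059).

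H3K4me3 in DMSO put the members in a different order. SMARCD3 was 3.48-fold, SMARCD1 2.34-fold and ARID1A 2.20-fold above input over the whole gene, and SMARCA4 1.40-fold. These 4 of 9 members were above input and 3 were at least 2-fold above it, against 42.7% and 23.9% of 30610 genes. With median-of-ratios scaling 6 members were above input, since ARID1B was then at 0.19 and SMARCC1 at 0.092, and 3 were at least 2-fold above it. In CPM the log2 ratio was -0.049 at ARID1B, -0.15 at SMARCC1, -0.68 at SMARCA2 (interval -0.77 to -0.59), -1.08 at PBRM1 and -1.88 at SMARCE1. The intervals of SMARCD1 and ARID1A overlapped, those of ARID1B and SMARCC1 did too, as did those of PBRM1 and SMARCE1, and SMARCA2 was apart from its neighbors in the order. A narrow peak at the start is diluted in a long gene. ARID1B spans 435 kb and ARID1A 88.9 kb, so the gap of 1.19 between them sets genes of unequal length side by side.

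After MAK683, SMARCA2 was above input in H3K4me3, at 0.20 with an interval from 0.12 to 0.28. Of the 9 members, 5 were then above input and 3 at least 2-fold above it, against 44.4% and 22.5% of 31257 genes. SMARCA4 was at 0.39, and the gap between the ATPase genes went from -1.17 in DMSO (interval -1.30 to -1.03) to -0.18 in MAK683 (interval -0.31 to -0.060).

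Compared directly, SMARCA2 had 1.81-fold more H3K4me3 CPM in MAK683 than in DMSO, with an interval from 1.70 to 1.93. Its log2 change was 0.86 (0.77 to 0.95), higher than that of 94.5% of 30028 genes, and 62.5% (61.1 to 64.0%) of its H3K4me3 reads came from MAK683 against 48.0% of the library totals. It lay 0.85 above the median of all genes, a distance that the scale between libraries leaves nearly unchanged for any gene. The paralogue SMARCA4 changed by -0.043, with an interval from -0.13 to 0.043, so that the ATPase genes differed in their change by 0.90 (0.78 to 1.02).

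Of the 9 members, 2 were at least 1.5-fold higher in H3K4me3, SMARCA2 and SMARCE1, and 0 were at least 1.5-fold lower. Over all genes these shares were 9.94% and 4.98%. The SMARCE1 change of 1.31 rests on 16 and 38 counts, with an interval from 0.49 to 2.31. Which part of the gene these counts cover is not known. This change drops out when 100 counts are asked for.

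The other measured members showed equal or slightly lower H3K4me3. SMARCC1 had 2888 and 2402 H3K4me3 counts, SMARCD3 1982 and 1702, ARID1A 3344 and 2710 and ARID1B 6412 and 5407, and all 4 had intervals below the library share, with log2 changes of -0.15, -0.10, -0.19 and -0.13. Over all genes, 21.3% had an interval below the library share and 19.5% one above it, the latter including SMARCA2 and SMARCE1. SMARCD1 with 743 and 669 counts and PBRM1 with 765 and 689 were both at -0.034, and their intervals include 0, as did that of SMARCA4. Over input, ARID1B was the 1 member of these with an interval below 0, at -0.10 (-0.18 to -0.030).

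**Figure D1:**
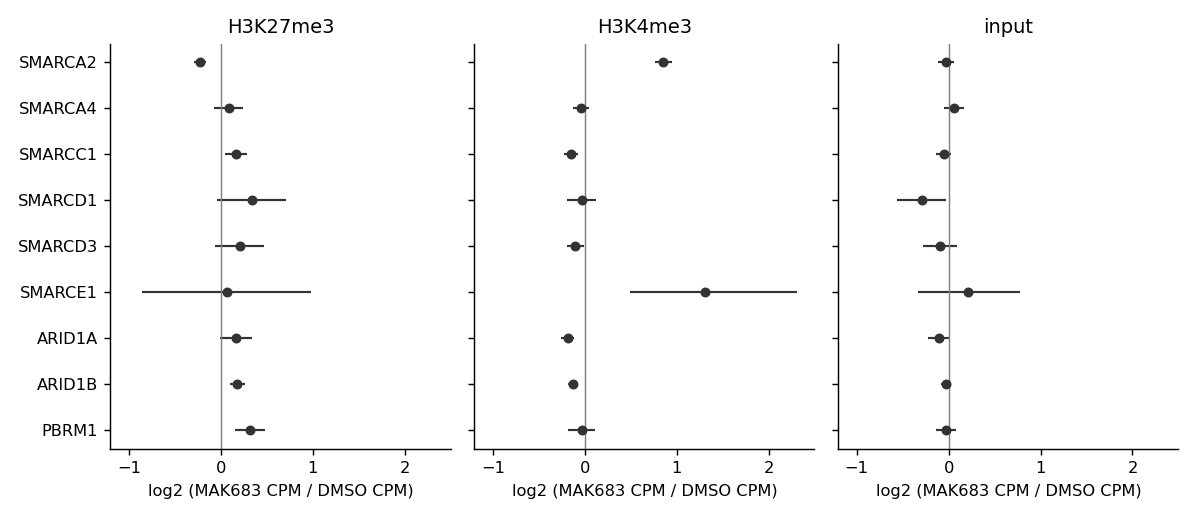
Log2 ratio of MAK683 CPM to DMSO CPM (horizontal axes) in H3K27me3, H3K4me3 and input for the 9 members with counts. Bars are 95% intervals that cover counting error only, from 1 library per treatment. SMARCA2 is left of 0 for H3K27me3 at -0.23, right of it for H3K4me3 at 0.86 and at -0.026 for input.

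To compare H3K4me3 in genes of unequal length, the reads that an unmarked gene of the same input would give were subtracted. The result is a sum over the whole gene and holds no position, so it does not say at which start the mark lies. The floor was the 10th percentile of H3K4me3 over input among the 8462 genes whose inputs summed to 1000 counts or more, a ratio of 0.480 in DMSO and 0.521 in MAK683, and the CPM above floor times input is called the excess here. At SMARCA2 the excess was 18.0 CPM in DMSO and 76.8 CPM in MAK683. With the 25th percentile as the floor it was 8.49 and 65.5 CPM, the same direction.

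SMARCA4 had an excess of 72.6 and 64.4 CPM, so the SMARCA2 value in MAK683 was close to that of its paralogue, while in DMSO it was far below. The other genes with a clear excess were lower or level in MAK683. ARID1A went from 123 to 104 CPM, ARID1B from 152 to 116 CPM, SMARCC1 from 63.4 to 46.8 CPM and SMARCD3 from 80.3 to 73.7 CPM, and SMARCD1 stayed at 27.8 CPM. PBRM1 (-0.52 and -3.68 CPM) and SMARCE1 (-0.64 and 0.17 CPM) had none to speak of. The first kb is wholly shared with other genes of the annotation at PBRM1 and SMARCE1, but also at ARID1B, which had a clear excess. At PBRM1 the sharing gene is GNL3 on the opposite strand, chosen after its values were seen, with 806 and 724 H3K4me3 counts against 88 and 131 in the inputs. The part of this sharing in the values was not tested.

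**Figure D2:**
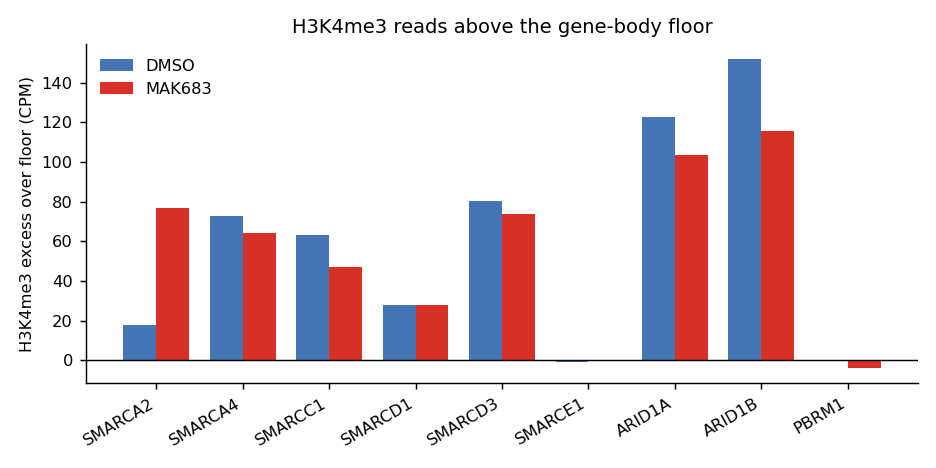
H3K4me3 CPM above the gene-body floor (vertical axis, bars drawn from 0, negative ones downward) for the 9 members with counts, DMSO in blue and MAK683 in red, 1 library each and no error bar. The SMARCA2 bar is 18.0 CPM in DMSO and 76.8 CPM in MAK683, and no other member shows a bar that much taller in MAK683.

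The H3K4me3 change at SMARCA2 was large also beside other genes marked with H3K27me3, a comparison chosen after the values were seen. Among 1671 genes with at least 1000 input counts and H3K27me3 at least 1.5-fold above input in DMSO, the median log2 change of H3K4me3 was 0.18, with quartiles of 0.080 and 0.30. Of these, 63 (3.77%) were at least 1.5-fold higher, and 99.5% changed less than SMARCA2. Among 5874 genes of the same depth with H3K27me3 below input, the group that holds SMARCA4, SMARCC1, ARID1A, ARID1B and PBRM1, the median was -0.025 and 2 genes (0.034%) were at least 1.5-fold higher. HOXD13, TBX3 and GATA3, which are shorter, changed by 1.79, 2.05 and 0.98.

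**Figure D3:**
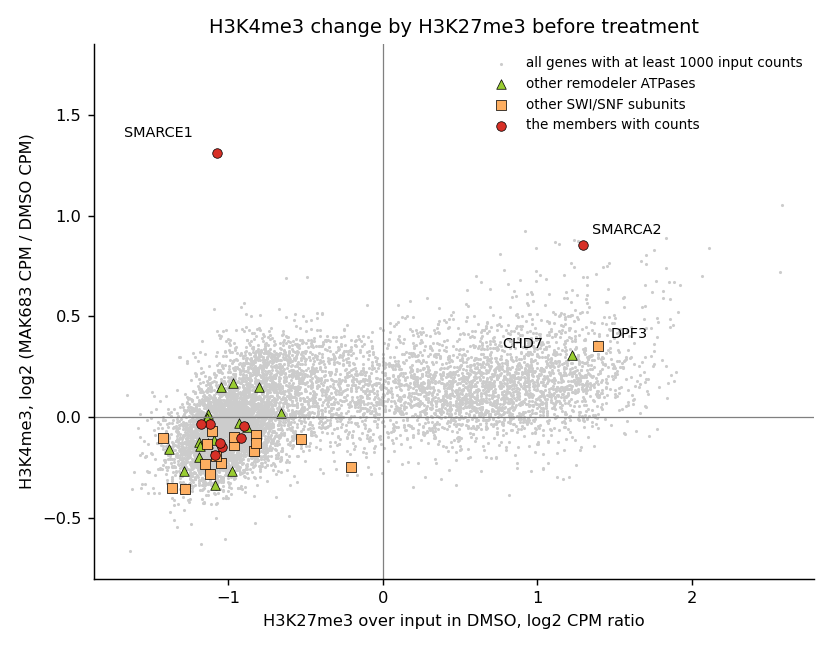
H3K4me3 change after MAK683 (vertical axis, log2 CPM ratio) against H3K27me3 over input in DMSO (horizontal axis, log2 CPM ratio). Gray dots are genes whose inputs summed to 1000 counts or more, red circles the 9 members with counts, orange squares other SWI/SNF subunit genes and green triangles ATPase genes of other remodelers, the colored genes without that limit on counts. SMARCA2 (1.30, 0.86) sits at the upper right, DPF3 and CHD7 below it, and SMARCE1 at the upper left rests on 16 and 38 counts.

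Other subunit genes outside the 10 members were low in H3K27me3 too, with DPF3 as the exception. Of 18 such genes, 17 had counts, and BICRA, which is wholly covered by other genes, had none. Their median H3K27me3 over input in DMSO was -1.05, against -0.61 over all genes, and 1 was above input, against 34.3% of all genes. That gene was DPF3, a BAF45 subunit that reads acetylated and methylated histone tails and is known from neurons, heart and muscle, at 1.39 in DMSO and 1.17 in MAK683.

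DPF3 had 3423 and 4142 input counts, 10238 and 6371 H3K27me3 counts and 3068 and 3612 H3K4me3 counts, DMSO first. Its H3K27me3 change of -0.16 (-0.20 to -0.11) and its H3K4me3 change of 0.35 (0.28 to 0.42) had the same signs as those of SMARCA2. The 1.28-fold higher H3K4me3 was under the 1.5-fold limit, and the excess was 46.6 CPM in DMSO and 73.5 CPM in MAK683.

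DPF3 was also listed with the neuronal subunit genes, and ACTL6B, SS18L1 and DPF1 were not above input in H3K27me3. ACTL6B, the actin-related subunit of neuronal BAF, was at -0.82 in H3K27me3 over input in DMSO, SS18L1 at -1.10 and DPF1 at -0.21 (interval -0.48 to 0.070). BCL7B, a small accessory subunit, was the 1 gene of the 17 at least 1.5-fold changed in H3K27me3, against 11.4% of all genes higher and 7.76% lower. It had 134 and 149 counts and a log2 change of 0.68 (0.33 to 1.03), at a level below input in both treatments. For H3K4me3 the 17 genes had a median of 1.16 over input in DMSO, with 14 above input, against -0.27 and 42.7% over all genes. Their median change was -0.14, with 0 of them 1.5-fold changed, against 9.94% of all genes higher and 4.98% lower.

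PRC2 genes and the ATPase genes of other remodelers gave the same picture of low H3K27me3. Of 11 PRC2 subunit genes, 0 were above input in DMSO and the median was -1.06, against 34.3% and -0.61 over all genes. The highest was AEBP2, an accessory PRC2 subunit, at -0.39. Of 18 ATPase genes of the ISWI, CHD, INO80 and related families, 1 was above input, against the same 34.3%, and the median was -1.09. That gene was CHD7, the remodeler mutated in CHARGE syndrome, at 1.22 in DMSO and 0.89 in MAK683. In CPM, 2 of the 11 PRC2 genes had at least 1.5-fold more H3K27me3 after MAK683, against 11.4% of all genes. EZH2 went from 442 to 535 counts, 0.80 on the log2 scale, and RBBP7 from 76 to 82, 0.63. Both stayed below input. No ATPase gene was 1.5-fold changed in H3K27me3. Intervals above the library share were found for 6 PRC2 and 12 ATPase genes, against 22.7% of all genes, and CHD7 alone had one below. These counts are not set against genes of equal depth, so they cannot be read as an enrichment.

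CHD7 had 5963 and 3290 H3K27me3 counts and 2038 and 2332 H3K4me3 counts. Its log2 changes were -0.33 (-0.39 to -0.27) in H3K27me3 and 0.31 (0.22 to 0.40) in H3K4me3. No gene of these PRC2 and ATPase lists was 1.5-fold changed in H3K4me3, and their median changes were -0.19 and -0.081. SMARCA2, DPF3 and CHD7 were thus the 3 genes of these lists with H3K27me3 above input. Each had more H3K4me3 and less H3K27me3 CPM after MAK683. More H3K4me3 was usual for marked genes and not particular to these 3. Among the 1671 genes at least 1.5-fold above input with 1000 input counts or more, its lower quartile of change was 0.080. How many marked genes had less H3K27me3 CPM was not computed. The upper quartile of all genes, as H3K27me3 relative to input, was 0.52 for DMSO but 0.37 for MAK683.

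Genes around SMARCA2 were looked at after its values were known. Within 1000 kb of it, 4 genes whose names could be placed on the annotation had at least 100 input counts. DMRT2, 923 kb upstream, was at 1.52 in H3K27me3 over input in DMSO and DMRT3, 989 kb upstream, at 0.93, both being doublesex-related transcription factor genes. VLDLR, a lipoprotein receptor gene 428 kb downstream, was at -1.01 and the pseudogene CARM1P1, 713 kb downstream, at -0.63. H3K27me3 above input was therefore found at SMARCA2 and far upstream, and not at the nearest measured gene downstream. SMARCA4 has 48 such neighbors, of which 2 were above input, with a median of -0.91.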

How the data were processed

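ChIP-seq of G401 cells was analyzed in 6 libraries, 1 per treatment and antibody, so samples were grouped by treatment and antibody and no test was run. Per the paper's methods and the submitters' processing notes, the authors trimmed reads with Trim Galore 0.4.4 and used Bowtie2 for alignment to hg19. They then used Picard 2.23.6, a step the paper words as depletion of repeat sequences. Its spike-in section speaks of reads counted after duplicates were removed. The authors deposited whole-number counts per gene from featureCounts. The annotation used for counting is not given in the sources used here, and the spike-in factors were not used here. Counts were divided by library totals (CPM), and log2 ratios took a pseudocount of 0.05 CPM where 1 of the 2 libraries compared had 10 counts or more. Calls meant at least 1.5-fold (2-fold for H3K4me3 over input). Coordinates, and the spans shared between genes, are those of GENCODE 44 on GRCh37, and promoter sequences are from RefSeq. Python 3.11.15, numpy 2.4.6, pandas 2.3.3, scipy 1.17.1 and matplotlib 3.10.9 were used, and the ratios were tested on simulated data.

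Named genes were the members, SMARCB1, HOXD13, TBX3, GATA3, other SWI/SNF genes at least 1.5-fold above input in H3K27me3 or 1.5-fold changed, and the neuronal subunit genes. Of the PRC2 and ATPase lists, the gene highest in H3K27me3 over input in DMSO and the genes 1.5-fold changed were named. The members and lists were chosen with earlier results of these data known. Alternatives were other scales, pseudocounts, count minimums, values over input and another floor. Groups by H3K27me3, neighboring genes and genes with an unshared first kb were added after seeing the data.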

Additional observations from a re-analysis of the deposited data

How the results depend on the processing

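With 1 library per treatment and antibody, differences between chromatin preparations cannot be told apart from those between treatments, and whole-gene counts do not show where in a gene a mark lies. No paired analysis was possible because no group has a replicate. SMARCA2 kept its sign in every measure and setting run: H3K27me3 over input was between 1.29 and 1.73 in DMSO and between 1.08 and 1.34 in MAK683, its H3K27me3 change between -0.75 and -0.20, and its H3K4me3 change between 0.67 and 0.88. Of the summary values over members recomputed under the alternatives, 92 moved by less than the limit set for them and 9 moved by more. With median-of-ratios scaling the member median of H3K27me3 over input in DMSO was -0.63 instead of -1.06. Under that scaling the median H3K27me3 change was -0.040 instead of 0.17 and the median H3K4me3 change -0.23 instead of -0.043. The member median of H3K4me3 over input in DMSO, counted among the 92, was then 0.19 instead of -0.049 (6 members above input instead of 4). In the counts as deposited the median changes were -0.36 for H3K27me3 and -0.16 for H3K4me3, and 1 member, SMARCA2, was at least 1.5-fold lower in H3K27me3 instead of 0. These shifts come from the scale itself. For the change over input, 1 member, SMARCD1, was at least 1.5-fold higher in H3K27me3. With at least 100 counts, or with genes whose first kb is shared with no other gene, 1 member (SMARCA2) instead of 2 was at least 1.5-fold higher in H3K4me3, since SMARCE1 is then not tested. Of the values of single members, 233 moved by less than the limit and 55 by more, and none that passed a fold limit changed sign.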
